A study of Pyrus pyrifolia with 6 samples.

Results

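Homeobox genes encode transcription factors that bind DNA through the homeodomain, and in plants they set meristem identity, organ boundaries, cell layers and responses to water deficit. This account covers the 109 protein-coding genes of the deposited pear table whose product name contains the word homeobox, out of 38969 genes in all. The rule uses the product name and no expression value, but the family was picked with earlier results of these data known. By those names, 18 were class I, 18 class II, 6 class III and 18 class IV homeodomain-leucine zipper (HD-Zip) genes, 20 were KNOTTED-like (KNOX) genes, 4 were BEL1-type (BELL) genes, 16 were WUSCHEL-related (WOX) genes, 2 were homeobox-DDT genes and 7 had other names.

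The samples were healthy and watercore fruit tissue of sand pear (*Pyrus pyrifolia*), with 3 libraries per group. Watercore is a disorder in which the spaces between flesh cells fill with liquid, so that the flesh turns translucent. According to the labels both groups shared the cultivar Qiurong, trees of 5 years and harvest at 120 days, and no treatment was applied to either. The paper names the cultivar Akibae and gives another tree age and harvest day, and the labels give skin as the organ while their treatment field and the paper give pulp. In the paper's methods the libraries of a group are biological replicates, and the labels do not say which fruit or tree each came from. The p-values below thus set the difference between the groups against the spread between these libraries only.

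The totals lay between 14382020 and 15290688 counts per library. No library stood apart from its group in the number of homeobox genes with a count, 57 to 58 in healthy and 64 to 70 in watercore libraries, while over all genes 24757 to 25105 and 27133 to 27293 had a count. Of the markers of outer tissue (cuticle and wax genes), 19 of 36 were at 0 counts in all libraries, and their summed FPKM (fragments per kilobase of gene length, scaled to the depth of the library) was 1.61 to 2.55 in healthy and 2.20 to 2.48 in watercore libraries. These markers were thus low, but no skin sample and no other skin marker was compared, so they cannot decide between skin and pulp. The tissue is called pulp here, after the treatment field and the paper.

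The names were checked against the other annotations in the table. A homeobox domain was listed for 94 of the 109 genes. The closest described protein was not a homeobox protein for 3 members, LOC103936772 (a mitochondrial import receptor subunit), LOC103948634 (a DNA helicase) and LOC103950552 (a potassium transporter), and none of the 3 was called. The genes LOC103931987, LOC103942733 and LOC108865827, which carry the names of animal homeobox proteins, had no such second annotation.

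Homeobox HD-Zip proteins occur only in plants, and their leucine zipper lets them bind DNA as dimers. Classes I and II act mainly in responses to abscisic acid, water deficit and light, class III in vascular tissue and organ polarity, and class IV in the epidermis. KNOX and BELL proteins bind DNA as heterodimers and act in meristems and in the maturation of organs, and WOX proteins maintain stem cells.

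Of the 109 genes, 33 had 0 counts in all 6 libraries and 31 had too few counts to be tested, which left 45. The deposited counts of all genes were tested with edgeR, and a gene counted as called where the adjusted p was under 0.05 and the log2 fold change was 1 or more in size, the thresholds of the study. Fold changes are of watercore over healthy pulp and are given with the standard error (SE). By this rule 8 of the 45 were called (17.8%, against 25.1% of all genes tested). Among them, 6 genes were higher in watercore pulp (13.3%, against 17.6% of all 21200 genes tested) and 2 were lower (4.44%, against 7.54%). Without the fold threshold, 16 were higher (35.6%, against 32.3%) and 9 were lower (20%, against 30.4%). All 3 watercore libraries lay above all healthy libraries in FPKM for 20 members (44.4%, against 35.8% of all genes tested) and below them for 11 (24.4%, against 33.2%). The median log2 fold change was 0.26 over the 45 members (quartiles -0.21 and 0.95) and 0.00 over all genes tested (quartiles -0.49 and 0.66). The share called was thus below the background in both directions, while the share of members with all watercore libraries above was higher than it, and no test was made of either difference. Of the 6 higher genes, 3 (LOC103931261, LOC103929635 and LOC103958388) passed the filter on low counts only through their watercore libraries and so had to differ. In bulk tissue, fewer cells of a type and less RNA per cell cannot be told apart.

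**Figure D1:**
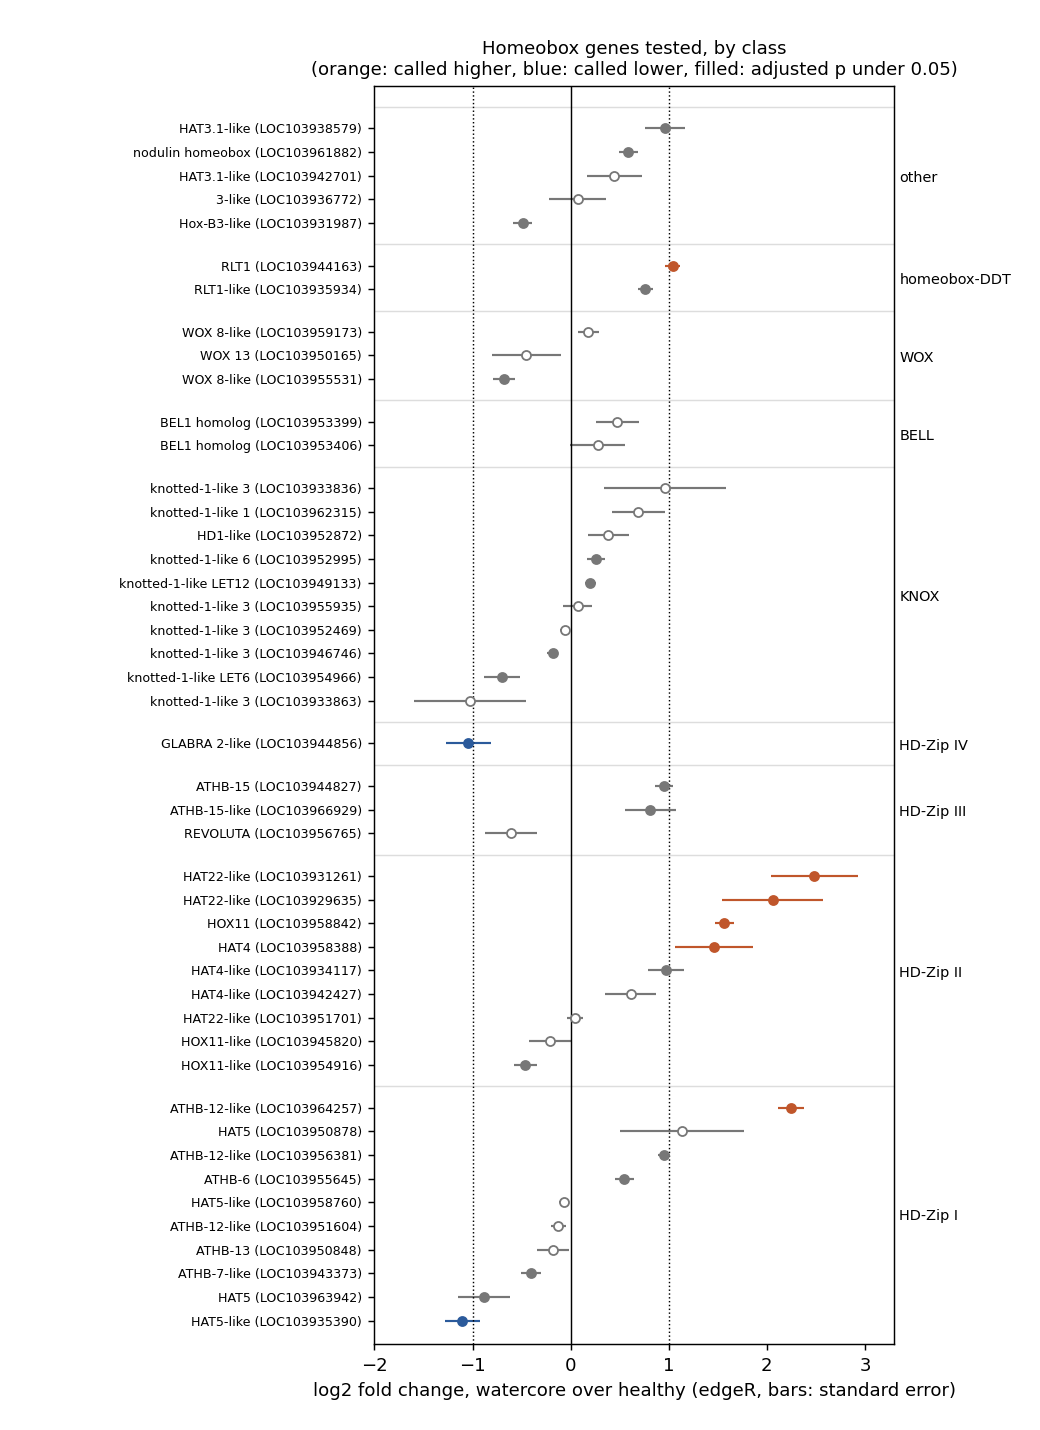
Log2 fold change of watercore over healthy pulp for the 45 homeobox genes tested, by class, with bars for the standard error and dotted lines at the fold threshold. The points span from -1.10 (HAT5-like, LOC103935390) to 2.48 (HAT22-like, LOC103931261). Of the 6 genes called higher (orange), 4 are in HD-Zip class II, and 3 of those 4 passed the filter on low counts only through their watercore libraries.

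The summed FPKM of the 109 genes was 1076 ± 28.2 (SD, n = 3) in healthy and 1323 ± 5.99 in watercore pulp, and the groups did not overlap. Most of the difference lay in HD-Zip class I, whose sum was 533 ± 8.41 in healthy and 765 ± 14.6 in watercore pulp. Without its genes LOC103956381 and LOC103964257, both named ATHB-12-like and chosen after their values were seen, the sum over the other homeobox genes was 886 ± 35.7 in healthy and 852 ± 2.20 in watercore pulp. The KNOX sum was 275 ± 7.74 and 269.5 ± 6.16, and the HD-Zip II sum 158 ± 23.4 and 159 ± 1.76. Sums of the homeobox-DDT genes (26.8 ± 1.87 and 51.8 ± 3.13) and of HD-Zip III (9.14 ± 1.01 and 16.5 ± 1.11) were higher in watercore pulp, and those of WOX (46.3 ± 4.47 and 34.1 ± 2.46) and HD-Zip IV (7.27, 4.88 and 6.32 in healthy, 2.84, 4.63 and 3.62 in watercore libraries) were lower, with no overlap in each. These sums are a description and were not tested.

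**Figure D2:**
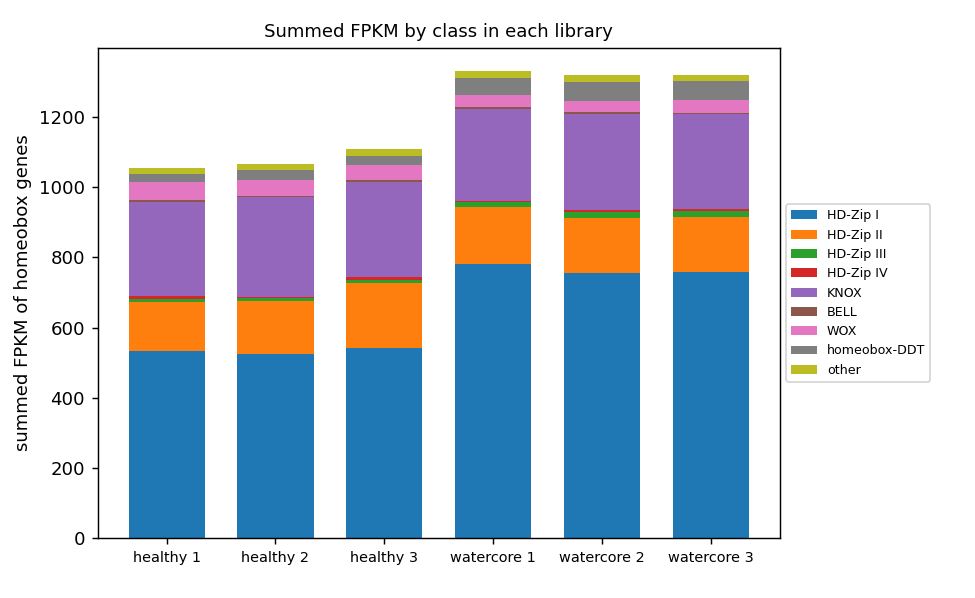
Summed FPKM of the homeobox genes in each of the 6 libraries, stacked by class. The totals were 1054 to 1108 in the healthy and 1319 to 1330 in the watercore libraries, and the HD-Zip I segment accounts for most of the step.

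Levels per gene length were dominated by a few genes. Over the 6 libraries, the 5 most abundant members held 55.2% of the summed homeobox FPKM. In order of mean FPKM they were the ATHB-12-like gene LOC103956381 (228), the HAT5-like gene LOC103958760 (146), the knotted-1-like 3 gene LOC103946746 (105), the ATHB-12-like gene LOC103964257 (103) and the ATHB-12-like gene LOC103951604 (79.9). The order differed between the groups. In healthy pulp the first was LOC103956381 with 155 ± 10.5 FPKM, and LOC103958760 with 149 ± 5.24 lay within its spread, while in watercore pulp LOC103956381 reached 301 ± 4.52 and LOC103964257 moved up to the second place with 170 ± 0.929.

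Among the class I HD-Zip genes, 2 of the 3 genes named ATHB-12-like, LOC103964257 and LOC103956381, had the largest gains in FPKM. In Arabidopsis, ATHB-12 and its close relative ATHB-7 are induced by water deficit and abscisic acid and control protein phosphatase 2C genes of that pathway. LOC103964257 (scaffold NW_008988302.1 from 375015 to 376677) had 42.2, 36.8 and 27.2 FPKM in the healthy and 169, 171 and 170 FPKM in the watercore libraries. The watercore libraries were nearly equal and lay far above the healthy ones. It was 4.76-fold higher (log2 fold change 2.25 ± 0.13 SE, adjusted p = 2.0e-06).

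The more abundant ATHB-12-like gene LOC103956381 (NW_008988176.1 from 785629 to 787184) had 145, 166 and 154 FPKM in the healthy and 307, 298 and 300 FPKM in the watercore libraries. The groups were well apart, but the log2 fold change of 0.95 ± 0.06 (SE, adjusted p = 3.0e-06) was just short of the fold threshold. The threshold was passed when healthy replicate 2 was left out (1.002), with at least 10 counts in every library (1.01) and with gene length offsets, which take out of each library the dependence of its counts on gene length (1.16). The remaining ATHB-12-like gene, LOC103951604 (NW_008988121.1 from 858912 to 860299), whose closest described protein is ATHB-7, had 86.8, 81.5 and 80.7 FPKM in the healthy and 81.1, 68.4 and 80.8 FPKM in the watercore libraries. The groups overlapped, and its log2 fold change was -0.12 (adjusted p = 0.19), and 0.14 with gene length offsets (adjusted p = 0.092). The ATHB-7-like gene LOC103943373 had 17.8, 18.8 and 19.3 FPKM in healthy and 15, 14.4 and 13.2 FPKM in watercore pulp. Its log2 fold change of -0.40 (adjusted p = 0.0059) shrank to -0.13 with gene length offsets (adjusted p = 0.27). The rise of LOC103964257 and LOC103956381 was thus not seen in LOC103951604 and LOC103943373, whose changes had no clear direction with the offsets. The differences between the responses of these genes were not tested.

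The HAT5 genes are named for the Arabidopsis factor also called ATHB-1, which acts in leaf growth, but the closest described protein of LOC103935390 and LOC103958760 is ATHB-16, a relative of ATHB-6. The HAT5-like gene LOC103935390 (NW_008988745.1 from 3556 to 5674) was called lower, with 65.2, 54.1 and 94.5 FPKM in the healthy and 36.2, 32.2 and 31.9 FPKM in the watercore libraries. The healthy libraries were spread widely, yet all lay above the watercore ones. The log2 fold change was -1.10 ± 0.18 (SE, adjusted p = 6.3e-04), and the call was lost without healthy replicate 3 (-0.85), the highest of the healthy libraries. Its more abundant namesake LOC103958760 (NW_008988206.1 from 394352 to 396621) had 155, 149 and 144 FPKM in healthy and 148, 143 and 140 FPKM in watercore pulp. These groups overlapped, with a log2 fold change of -0.07 ± 0.05 (SE, adjusted p = 0.29).

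Another HAT5 gene, LOC103963942, had 3.19, 2.65 and 5.11 FPKM in healthy and 1.93, 2.20 and 1.85 FPKM in watercore pulp, with a log2 fold change of -0.88 (adjusted p = 0.018). LOC103950878, also named HAT5, had few counts (23 in the healthy and 51 in the watercore libraries together) and overlapping groups. The ATHB-6 gene LOC103955645, whose Arabidopsis namesake binds the phosphatase ABI1 of the abscisic acid pathway, had 13.6, 11.5 and 12.5 FPKM in healthy and 18.4, 19.7 and 17.3 FPKM in watercore pulp. All its watercore libraries were higher, with a log2 fold change of 0.55 (adjusted p = 8.5e-04). ATHB-13 (LOC103950848) stayed between 3.53 and 4.44 FPKM in all libraries, with overlapping groups.

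**Figure D3:**
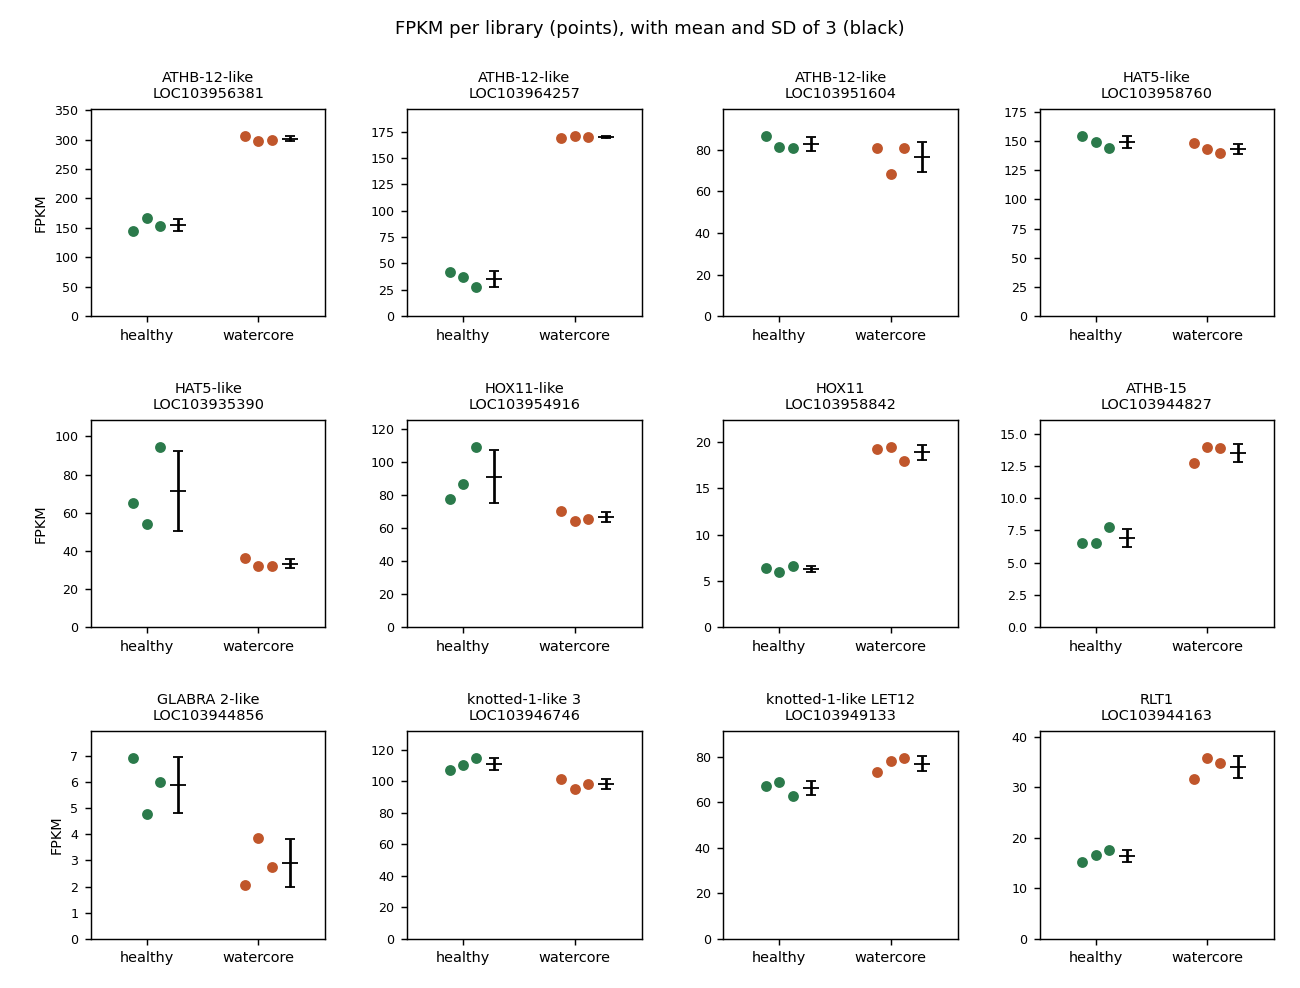
FPKM of 12 homeobox genes in each library, with the mean and SD of 3 libraries per group, on axes that start at 0. The ATHB-12-like gene LOC103964257 went from 27.2 to 42.2 FPKM in healthy to 169 to 171 FPKM in watercore pulp, while HAT5-like LOC103958760 overlapped between the groups.

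Class II HD-Zip proteins are mostly repressors, and the Arabidopsis factor HAT4 promotes the elongation of shaded plants. Of its 9 tested genes, 3 were the low genes that passed the filter only through their watercore libraries. Of the other 6 edgeR called 1 higher (17.6% of all genes tested were) and none lower (7.54%). Without the fold threshold, LOC103958842 and LOC103934117 of these 6 were higher (32.3% of all genes tested were), and LOC103954916 was lower (30.4%). HOX11 (LOC103958842, NW_008988044.1 from 1261570 to 1264765), a gene close to Arabidopsis HAT14, had 6.40, 5.97 and 6.63 FPKM in the healthy and 19.3, 19.5 and 18.0 FPKM in the watercore libraries. Both groups were tight and well apart. It was 2.96-fold higher (log2 fold change 1.57 ± 0.10 SE, adjusted p = 2.7e-06) and kept its call in the 16 alternatives computed for single genes at this fold threshold.

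HOX11-like LOC103954916 (NW_008988158.1 from 588413 to 590564), with the same closest described protein, was the most abundant gene of class II and went the other way. It had 77.6, 86.9 and 109 FPKM in healthy and 70.3, 64.5 and 65.9 FPKM in watercore pulp, a log2 fold change of -0.46 ± 0.11 (SE, adjusted p = 0.0065) short of the fold threshold. The groups did not overlap, although the gap between the lowest healthy and the highest watercore library was small. HOX11-like LOC103945820 was low, at 1.55 to 1.94 FPKM, with a log2 fold change of -0.21 (adjusted p = 0.43).

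The HAT22 genes are named for an Arabidopsis factor of senescence and abscisic acid response. The abundant HAT22-like gene LOC103951701 had 44.2, 46.2 and 54.7 FPKM in healthy and 49.4, 52.1 and 49.5 FPKM in watercore pulp, with overlapping groups (log2 fold change 0.05, adjusted p = 0.65). The called HAT22-like genes were much lower in level. LOC103931261 had 7, 4 and 2 counts in the healthy and 31, 22 and 22 counts in the watercore libraries (log2 fold change 2.48 ± 0.44 SE, adjusted p = 0.0010). LOC103929635 had 10, 3 and 2 counts in healthy and 22, 21 and 21 counts in watercore libraries (log2 fold change 2.06 ± 0.51 SE, adjusted p = 0.0067). In FPKM neither reached the level of 2, and both are minor transcripts of the class.

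Among the HAT4 genes, LOC103958388 was called higher from 4, 9 and 7 counts in healthy and 23, 17 and 16 counts in watercore libraries (log2 fold change 1.46 ± 0.40 SE, adjusted p = 0.011). DESeq2 gave it an adjusted p of 0.054 and glmTreat, whose null is a change within the fold threshold, one of 0.252, and over its alternatives the adjusted p ranged from 0.0060 to 0.252. HAT4-like LOC103934117 had 5.51, 5.51 and 7.34 FPKM in healthy and 9.77, 12.2 and 14.4 FPKM in watercore pulp. Its watercore libraries were all higher, with a log2 fold change of 0.97 ± 0.18 (SE, adjusted p = 0.0015) just short of the fold threshold. With gene length offsets the value was 1.23 (adjusted p = 5.4e-04), which passed the threshold. HAT4-like LOC103942427 had 3.37, 2.07 and 4.16 FPKM in healthy and 5.93, 4.43 and 4.41 FPKM in watercore pulp (log2 fold change 0.61, adjusted p = 0.071). With the offsets its log2 fold change was 0.76 (adjusted p = 0.033).

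Class III HD-Zip genes, which pattern vascular tissue and the upper side of organs, were less abundant. ATHB-15 (LOC103944827, NW_008988067.1 from 465720 to 472554) had 6.50, 6.50 and 7.74 FPKM in healthy and 12.7, 14 and 13.9 FPKM in watercore pulp. The log2 fold change of 0.96 ± 0.09 (SE, adjusted p = 2.9e-05) was just under the threshold, passed it without healthy replicate 3 (1.05), and was 0.65 with gene length offsets. ATHB-15-like LOC103966929 had 1.28, 1.12 and 1.18 FPKM in healthy and 1.69, 2.19 and 2.46 FPKM in watercore pulp (log2 fold change 0.81, adjusted p = 0.023). REVOLUTA (LOC103956765), needed in Arabidopsis for meristems and vascular bundles, had 0.812, 0.838 and 1.37 FPKM in healthy and 0.674, 0.658 and 0.666 FPKM in watercore pulp. Its healthy libraries were all higher, with a log2 fold change of -0.61 that missed the test (adjusted p = 0.076). With gene length offsets the value was -0.96 (adjusted p = 0.013). Of the 7 xylem markers, 1 could be tested and was not called, and their summed FPKM was 0.119 to 0.418 in healthy and 0.409 to 0.909 in watercore libraries. Of 12 phloem genes, 6 were tested, and 2 were called higher and 1 lower (17.6% and 7.54% of all genes tested). Their summed FPKM was 63.7 to 73.1 in healthy and 78.7 to 84.2 in watercore libraries. The part of these tissues in the class III values was not tested.

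Class IV HD-Zip genes mark the epidermis, and MERISTEM L1 and PROTODERMAL FACTOR 2 give it its identity in Arabidopsis. The 3 MERISTEM L1-like genes LOC103953984, LOC103948143 and LOC103933020 had 0 counts in all 6 libraries, and 9 of the 18 genes of the class did. Of the others, only the GLABRA 2-like gene LOC103944856 (NW_008988067.1 from 935761 to 940204) had enough counts to be tested. GLABRA 2 controls hair cells of leaf and root in Arabidopsis. LOC103944856 had 6.93, 4.78 and 6.03 FPKM in healthy and 2.05, 3.87 and 2.76 FPKM in watercore pulp. The libraries of each group were spread, but the groups did not overlap, and the gene was called lower (log2 fold change -1.04 ± 0.23 SE, adjusted p = 0.0036). The call was lost without healthy replicate 1 (-0.91), without watercore replicate 1 (-0.85), with at least 10 counts in every library (-0.98), with limma on log2(FPKM + 1) (-0.84) and with glmTreat. The ANTHOCYANINLESS 2-like gene LOC103941477 had 1, 0 and 4 counts in healthy and 9, 9 and 10 counts in watercore libraries, too few for the test.

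KNOX genes of class I, such as SHOOT MERISTEMLESS and LET6, keep meristem cells undifferentiated, and genes of class II, such as Arabidopsis KNAT3 and tomato LET12, act in maturing organs. None of the 10 tested KNOX genes was called by edgeR or by DESeq2, where edgeR called 25.1% of all genes tested. At an unadjusted p under 0.05, 3 were higher and 2 lower in edgeR, and at an adjusted p under 0.05 without the fold threshold 2 were higher (32.3% of all genes tested were) and 2 lower (30.4%). The most abundant, knotted-1-like 3 gene LOC103946746 (NW_008988082.1 from 719575 to 723287), had 107, 110 and 115 FPKM in healthy and 101, 95.3 and 98.5 FPKM in watercore pulp. Every watercore library was lower, but by little (log2 fold change -0.18 ± 0.05 SE, adjusted p = 0.014). LET12 (LOC103949133) had 67.1, 69.0 and 62.8 FPKM in healthy and 73.1, 78.1 and 79.4 FPKM in watercore pulp, a small step up with no overlap (log2 fold change 0.20, adjusted p = 0.016). Another knotted-1-like 3 gene, LOC103952469, lay between 41.0 and 44.6 FPKM in all 6 libraries (log2 fold change -0.06, adjusted p = 0.36). With gene length offsets its log2 fold change was -0.47 (adjusted p = 6.0e-05).

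Of the class I names, knotted-1-like 6 (LOC103952995) was the most abundant, with 19.0, 16.2 and 17.4 FPKM in healthy and 22.2, 19.98 and 21.4 FPKM in watercore pulp (log2 fold change 0.26, adjusted p = 0.034). The LET6 gene LOC103954966 had 7.30, 5.28 and 5.42 FPKM in healthy and 3.63, 3.95 and 3.61 FPKM in watercore pulp. All its watercore libraries were lower (log2 fold change -0.70 ± 0.19 SE, adjusted p = 0.010), and the value was -0.46 with gene length offsets. SHOOT MERISTEMLESS-like LOC103948215 had 1 count in all libraries together, and the other LET6 gene, LOC103947452, had 0.

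Some KNOX genes lay near a similar gene on the same scaffold, and the sources used here do not say how reads were shared between such copies. The knotted-1-like 3 genes LOC103933836 and LOC103933863 (NW_008988658.1, 221294 bases apart) varied in opposite ways between libraries of 1 group. LOC103933863 had 173, 614 and 382 counts in healthy and 110, 372 and 90 counts in watercore libraries, where LOC103933836 had 138, 46 and 55 and then 113, 49 and 306 counts. Summed, they had 311, 660 and 437 counts in healthy and 223, 421 and 396 counts in watercore libraries, and the groups still overlapped. Neither passed the test (adjusted p = 0.15 and 0.21). The HD1-like genes LOC103966460 and LOC103966455, 48070 bases apart, showed the same alternation at lower counts (38, 1 and 1 against 1, 24 and 2 in the healthy libraries). Values of these genes are therefore uncertain.

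BELL proteins pair with KNOX proteins. The genes named BEL1 homolog, after the Arabidopsis factor of ovule integuments, were both measured. LOC103953399 had 1.65, 1.54 and 1.11 FPKM in healthy and 2.37, 1.83 and 1.85 FPKM in watercore pulp (log2 fold change 0.48, adjusted p = 0.086). LOC103953406 had 2.75, 2.003 and 3.25 FPKM in healthy and 3.64, 4.17 and 1.97 FPKM in watercore pulp, and its groups overlapped (log2 fold change 0.28, adjusted p = 0.42). The 2 ATH1-like genes had at most 2 counts in any library.

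The WOX genes of stem cells and embryos were largely silent. Of the 16, 12 had 0 counts in all libraries, among them the genes named WOX 1, 2, 4, 7, 9 and 11. A further gene, WOX 3-like LOC103945662, had 0 counts in all healthy libraries and 5, 3 and 5 counts in the watercore libraries. The 3 tested genes shared a protein named WOX 8 as the closest described protein, although LOC103950165 is itself named WOX 13. The species of that WOX 8 protein is not given here, so the name does not equate these genes with an Arabidopsis gene. WOX 8-like LOC103955531 (NW_008988166.1 from 113538 to 116204) had 40.6, 36.2 and 32.0 FPKM in healthy and 22.4, 20.4 and 25.5 FPKM in watercore pulp. The groups did not overlap, and the log2 fold change was -0.68 ± 0.11 (SE, adjusted p = 6.9e-04), short of the fold threshold. WOX 8-like LOC103959173 had 9.35, 9.03 and 9.02 FPKM in healthy and 10.8, 10.2 and 10.3 FPKM in watercore pulp, a step of 0.18 on the log2 scale that missed the test (adjusted p = 0.16). With gene length offsets the step was 0.41 (adjusted p = 0.0074). WOX 13 (LOC103950165), whose Arabidopsis namesake acts in fruit patterning and wound repair, lay between 0.413 and 0.894 FPKM.

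The homeobox-DDT protein RLT1 is, in Arabidopsis, a partner of chromatin remodelling ATPases of the imitation switch type. RLT1 (LOC103944163, NW_008988063.1 from 952130 to 962639) had 15.1, 16.5 and 17.5 FPKM in healthy and 31.5, 35.7 and 34.7 FPKM in watercore pulp. It was 2.06-fold higher (log2 fold change 1.04 ± 0.07 SE, adjusted p = 5.3e-06). RLT1-like LOC103935934 had 9.53, 11.4 and 10.3 FPKM in healthy and 16.7, 18.3 and 18.3 FPKM in watercore pulp (log2 fold change 0.76 ± 0.08 SE, adjusted p = 3.8e-05). Both are long genes, of 6296 and 6278 bases. The 336 tested genes between 5500 and 7000 bases had a median log2 fold change of 0.59, and 28.9% of them were called higher. With gene length offsets, the log2 fold changes were 0.37 for RLT1 and 0.09 for RLT1-like, and the call was lost. RLT1 was also not called without healthy replicate 1 (0.99) or with glmTreat.

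Of the remaining names, HAT3.1-like LOC103938579, which joins a PHD finger to a homeodomain, had 1.23, 1.10 and 1.51 FPKM in healthy and 2.60, 2.31 and 2.65 FPKM in watercore pulp (log2 fold change 0.96 ± 0.20 SE, adjusted p = 0.0029). Its namesake LOC103942701 overlapped between the groups. Nodulin homeobox (LOC103961882) had 5.04, 5.35 and 4.61 FPKM in healthy and 7.81, 7.37 and 7.57 FPKM in watercore pulp (log2 fold change 0.59, adjusted p = 5.8e-04). The Hox-B3-like gene LOC103931987 went down, at 7.66, 8.81 and 9.01 FPKM in healthy and 5.83, 6.64 and 5.86 FPKM in watercore pulp (log2 fold change -0.49, adjusted p = 0.0020).

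The fold changes varied with gene length over all genes, and the homeobox genes were set beside it. When all tested genes were split by length into 5 classes, their median went from -0.37 on the log2 scale in the shortest to 0.38 in the longest. No tested homeobox gene fell in the shortest class, up to 1115 bases. The 21 in the next class had a median of 0.26 against -0.19 for all its genes. The next classes had 9 members with a median of -0.07 against -0.04 and 6 members with 0.17 against 0.10, and the 9 members of the longest class had 0.48 against 0.38. ATHB-12-like LOC103964257 (1388 bases) and HOX11 (1500 bases) were higher against this trend, with 2.43 and 1.70 after gene length offsets. HAT5-like LOC103935390 had -0.996 with the offsets, just inside the fold threshold and not called.

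**Figure D4:**
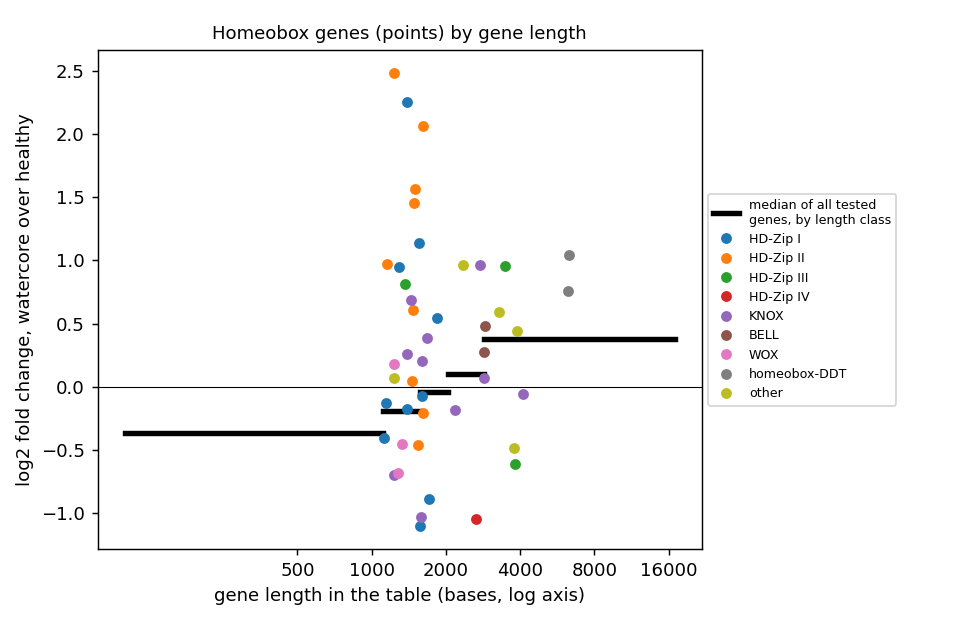
Log2 fold change of the 45 tested homeobox genes against gene length on a log axis, with bars for the median of all tested genes in each of 5 length classes. The homeobox-DDT genes at 6278 and 6296 bases lie in the class whose median is 0.38, while the most strongly higher HD-Zip genes lie in classes with medians below 0.

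Genes known to act with homeobox proteins were counted by product name, against the same background of 17.6% called higher and 7.54% called lower. Of 11 clade A protein phosphatase 2C genes, which are targets of ATHB-7 and ATHB-12 in Arabidopsis and brake abscisic acid signalling, 10 were tested. Among the 10, 5 were called higher (4 with gene length offsets), and 9 were higher without the fold threshold (32.3% of all genes tested were). The 56-like gene LOC103943902 had 4.78, 4.73 and 5.56 FPKM in healthy and 44.4, 57.6 and 46.4 FPKM in watercore pulp (log2 fold change 3.29, adjusted p = 2.2e-07). The probable phosphatase 51 gene LOC103943417 had 3, 3 and 5 counts in healthy and 56, 109 and 52 counts in watercore libraries. It passed the filter on low counts only through its watercore libraries and so had to differ. Such genes were not set apart in the counts of this and the other lists. The most abundant, 37-like gene LOC103942951, had 174, 178 and 156 FPKM in healthy and 285, 301 and 280 FPKM in watercore pulp, a log2 fold change of 0.76 (adjusted p = 1.5e-05) short of the threshold. The exception, LOC103960091, is named phosphatase 51 but has a protein kinase as its closest described protein, and its groups overlapped (log2 fold change -0.24).

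TOPLESS corepressors are recruited by class II HD-Zip and WUSCHEL proteins. All 13 TOPLESS genes were tested, 4 were called higher, and 10 were higher without the fold threshold (32.3% of all genes tested were). TOPLESS-related 4-like LOC103958351 had 8.70, 9.84 and 8.58 FPKM in healthy and 39.9, 36.6 and 39.2 FPKM in watercore pulp (log2 fold change 2.08, adjusted p = 1.6e-07). The median log2 fold change of the 13 was 0.81, and 0.45 with gene length offsets, since these genes had a median length of 3836 bases. With the offsets, 4 were again called higher.

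KNOX proteins are known to lower gibberellin, by repressing gibberellin 20-oxidase genes and, in maize, by activating a gibberellin 2-oxidase gene. The 6 gibberellin 20-oxidase genes had too few counts for the test, at most 2 in a library. Of 19 gibberellin 2-oxidase genes, which inactivate gibberellins, 3 were tested and 2 were called higher. The 1-like gene LOC103957332 had 5.89, 5.95 and 3.64 FPKM in healthy and 263, 213 and 260 FPKM in watercore pulp (log2 fold change 5.55 ± 0.16 SE, adjusted p = 7.7e-08). Its level in watercore pulp (245 ± 28.3 FPKM) lay between those of the ATHB-12-like genes LOC103964257 and LOC103956381.

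OVATE family repressors bind KNOX and BELL proteins. Of 28 genes, 5 were tested and 4 were called higher, led in level by OFP4-like LOC103963674, with 3.14, 3.11 and 3.86 FPKM in healthy and 10.7, 10.4 and 8.90 FPKM in watercore pulp (log2 fold change 1.55, adjusted p = 2.6e-04). Of 10 organ boundary genes, 7 had 0 counts in all libraries and 1 was tested, and it was called higher. This was CUP-SHAPED COTYLEDON 2-like LOC103944422, whose Arabidopsis namesake works with SHOOT MERISTEMLESS. It had 4.46, 3.73 and 3.55 FPKM in healthy and 14.9, 13.9 and 14.6 FPKM in watercore pulp (log2 fold change 1.88, adjusted p = 2.5e-06). LITTLE ZIPPER 1-like LOC103942550, a small protein that blocks class III HD-Zip factors, had 0 counts in all healthy libraries and 5 counts in each watercore library. CLAVATA2 (LOC103938551) was called higher among 2 tested of 10 CLAVATA genes, and of 8 cytokinin synthesis genes 1 was tested and was not called.

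**Figure D5:**
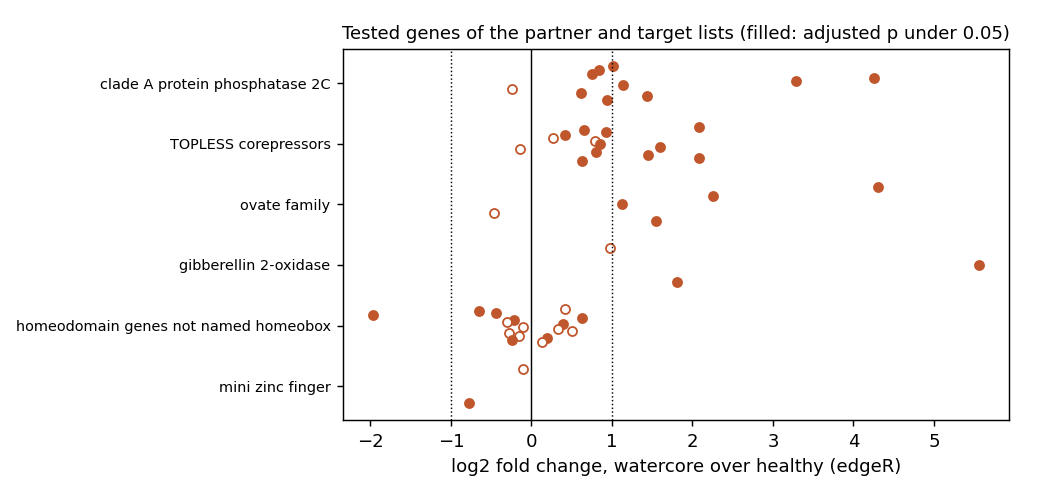
Log2 fold change of the tested genes in 6 lists of partners and targets of homeobox proteins, with filled points at an adjusted p under 0.05 and dotted lines at the fold threshold. Of 10 clade A protein phosphatase 2C genes, 9 are filled and to the right of 0 (32.3% of all genes tested were). The homeodomain genes that are not named homeobox lie on both sides, with 1 of 16 called (25.1% of all genes tested were).

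A further 39 genes had homeodomain or BEL1-like, but not homeobox, in the product name, and 16 were tested. Neither edgeR nor DESeq2 called any of them higher (3 were higher and 5 lower at an unadjusted p under 0.05), and 1 was called lower, zinc-finger homeodomain protein 10 (LOC103933092, log2 fold change -1.96, adjusted p = 0.0019). The BEL1-like homeodomain genes were far more abundant than the genes named BEL1 homolog. BEL1-like homeodomain protein 7 (LOC103939478) had a mean of 71.1 FPKM in healthy and 111 FPKM in watercore pulp (log2 fold change 0.63, adjusted p = 3.8e-04), and BEL1-like homeodomain protein 1 (LOC103940556) one of 77.6 and 67.5 FPKM (log2 fold change -0.21, adjusted p = 0.014). Mini zinc finger proteins are short and pair with zinc-finger homeodomain factors. Of 4 such genes, 2 were tested, none was called and 1 was lower without the fold threshold (30.4% of all genes tested were). That gene, mini zinc finger protein 2 (LOC103964978), had 149, 132 and 143 FPKM in healthy and 92.9, 79.4 and 77.3 FPKM in watercore pulp (log2 fold change -0.78, adjusted p = 5.2e-05). The 2 tested genes had a median length of 789 bases. Their median log2 fold change was -0.44, and -0.12 with gene length offsets.

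The seed and embryo list was picked by names of storage proteins, oleosins and late embryogenesis proteins. Whether these names mark seed cells in this tissue was not tested. Of its 50 genes, 17 were tested, 10 were called higher and 1 lower (17.6% and 7.54% of all genes tested). A further 21 were at 0 counts in all libraries. The summed FPKM of the list was 529 to 571 in healthy and 1403 to 1556 in watercore libraries. Of 34 genes of dividing cells, 16 were tested, 3 were called higher and 1 lower (394 to 439 and 292 to 306 summed FPKM). Without the fold threshold, 3 of them were higher and 7 lower (32.3% and 30.4% of all genes tested). The tested genes of this list were short, with a median length of 637.5 bases. Their median log2 fold change was -0.21, and -0.01 with gene length offsets. Of 27 chlorophyll-binding genes, 11 were tested, and 2 were called higher and 3 lower (59.3 to 66.3 and 65.6 to 66.6). The part of seed, dividing or chlorophyll-bearing cells in the homeobox values was not tested.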

How the data were processed

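Per the labels and the paper's methods, RNA of 3 healthy and 3 watercore libraries was sequenced, low-quality reads and those holding adapters or poly-N stretches were discarded, and the remainder was mapped with Hisat2. The paper names the *Pyrus betulifolia* genome, while the table uses other gene identifiers and scaffolds, and for its build, the counting tool and the use of strand the sources used here give nothing. The authors deposited raw counts and FPKM values per gene and library. The FPKM values use a gene length that exceeds the span of the gene on its scaffold for 3 of the 45 tested homeobox genes, so that levels compared between genes are approximate. The authors also deposited mean scaled counts per group and a DESeq2 comparison (log2 fold changes and p-values), which were not used. Number of other columns with values per library that were left out: 0.

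Counts of the whole table were tested with the quasi-likelihood test of edgeR 4.0.16 (R 4.3.3) with TMM factors and its default filter on low counts, and p-values were adjusted by Benjamini-Hochberg over all 21200 genes tested. The biological coefficient of variation was 0.143. Standard errors were derived from the fold change and the F statistic. Alternatives were DESeq2 1.42.0, limma 3.58.1 on log2(FPKM + 1) and on log2(FPKM + 0.1) with a mean FPKM of at least 1, scaling by RLE, by upper quartile or by total counts, no filter, at least 10 counts in every library, glmTreat, no minimum fold change, gene length offsets, the replicate number as a block, other choices of members, and each library left out in turn. On simulated data with 100 genes changed by 2.5 and 100 by 1.5 (log2), edgeR recovered 100% and 96% and called 2 unchanged genes of 21128 tested. The simulation changed few genes, none of low count, equally up and down, with the same dispersion throughout and no dependence on length. These figures therefore do not carry over to the low-count calls or to the length trend of the data.

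The members and lists were chosen with earlier results of these data known. Values per library are given for all called members and the most abundant member of each class by rule, and other members were named after their values were seen. Similar genes were to be paired by protein identity, but no protein sequences were used here, and the closest described protein in the table took their place. Sums over members were not tested. Tables and plots used pandas 2.3.3, numpy 2.4.6 and matplotlib 3.10.9 under Python 3.11.15.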

Additional observations from a re-analysis of the deposited data

How the results depend on the processing

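The 6 higher and 2 lower calls were counted again under each alternative. The number of higher members was 16 and of lower members 9 with no minimum fold change, 3 and 0 with glmTreat (LOC103964257, LOC103958842 and LOC103931261 remained), and 3 and 1 with limma on log2(FPKM + 1). It was 3 higher with limma on log2(FPKM + 0.1), 10 higher without a filter on low counts, and 1 lower both with gene length offsets and with at least 10 counts in every library. Leaving out single libraries gave 6 to 9 higher (9 without healthy replicate 3) and 1 to 3 lower members (1 without healthy replicate 1, healthy replicate 3 or watercore replicate 1, and 3 without healthy replicate 2 or watercore replicate 2), and HAT5-like LOC103935390, RLT1 and the GLABRA 2-like gene were the calls lost. The median log2 fold change was 0.61 with DESeq2 and 0.57 without a filter (both over more low-count members), 0.084 and 0.21 with limma at pseudocounts of 1 and 0.1 (over the 45 members of the edgeR test alone, 0.27 with DESeq2, 0.24 without a filter and 0.21 with limma at a pseudocount of 1), 0.18 with homeodomain names added, 0.16 with homeobox anywhere in the description, and 0.19 to 0.25 with libraries left out. Leaving out the 3 members with another second annotation, chosen after seeing the data, kept the counts of 6 and 2. Except where a filter, fold threshold or pseudocount sets the number by construction, the cause was not tested. The TMM, RLE, upper-quartile and total-count scalings gave 6 and 2 calls each. Same-numbered libraries of the groups showed no strong shared deviation (correlations of 0.037, 0.0027 and -0.0026). With 3 libraries per group, a weak pairing by number cannot be told from none. With the replicate block, 6 members were higher and 3 lower. Depth limits what can be said of the 64 untested members, which had at most 58 counts over the 6 libraries.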

Other observations

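Within the groups, homeobox genes did not vary evenly over the libraries. Of the 45 tested members, 21 had their highest healthy FPKM in healthy replicate 3 and 7 had it in healthy replicate 2 (46.7% and 15.6%, against 34.7% and 31.4% of all genes tested). Among the members highest in healthy replicate 3 were HAT5-like LOC103935390 (94.5 FPKM, against 54.1 and 65.2), HOX11-like LOC103954916 (109 FPKM, against 77.6 and 86.9) and REVOLUTA LOC103956765 (1.37 FPKM, against 0.812 and 0.838). In watercore pulp, 20 members were highest in watercore replicate 2 and 8 in watercore replicate 3 (44.4% and 17.8%, against 34.2% and 30.2% of all genes tested). No test was made of these counts.

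Several homeobox genes under the filter on low counts had more counts in watercore than in healthy libraries. HAT4-like LOC103930874 had 0, 1 and 2 counts in healthy and 1, 14 and 8 counts in watercore libraries, and knotted-1-like 1 LOC103929636 had 0, 0 and 2 counts in healthy and 11, 1 and 8 counts in watercore libraries. The ATHB-15 gene LOC103957082 had 2, 0 and 1 counts in healthy and 5, 3 and 10 counts in watercore libraries. The number of genes of any kind with a count was also higher in every watercore library.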
